A study of Homo sapiens with 6 samples.

Results

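Secreted Wnt antagonists and the Wnt5 ligands were followed through 8 genes. FRZB, SFRP1, DKK1, DKK2 and WIF1 encode products that bind Wnt proteins or their co-receptors outside the cell. DKK3 is a divergent Dickkopf gene, and WNT5A and WNT5B encode ligands. All probe sets that the array annotation assigns to only 1 gene symbol, and that to a member of this set, were taken, 23 in all, out of 41097 probe sets for 19775 genes. FRZB was chosen by its measured fall in bevacizumab against control tumours, so its values are a description and carry no test. The other 7 genes complete the set as further antagonists and the Wnt5 ligands. The tumours were xenografts of U87-EV, a form of the established human glioblastoma line U87 (the labels do not spell out EV), implanted with Matrigel under the skin of female BALB/c SCID mice aged 6 to 8 weeks, which lack B and T cells. The bevacizumab group (3 arrays) received 10 mg/kg of this antibody against human vascular endothelial growth factor A into the peritoneum at intervals of 3 days, from a tumour volume of 150 to 200 mm3 until tumours were about 15 to 30 mm across. The control group (3 arrays) received saline. There were 5 mice in each group at the start. Whether every array stands for a mouse of its own is not in the labels, and the p-values therefore reflect only how much these arrays varied, which can include technical variation.

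Wnt proteins are secreted lipid-modified ligands that bind Frizzled receptors. With the co-receptors LRP5 and LRP6 they stabilise beta-catenin, which acts with TCF/LEF factors on target genes. WNT5A and WNT5B are best known for signalling that does not pass through beta-catenin, by way of ROR and RYK receptors, and WNT5A is known for promoting glioma cell movement. Antagonists act at different points: secreted Frizzled-related proteins (SFRP1, and FRZB, also called SFRP3) and WIF1 bind the ligands themselves, whereas Dickkopf proteins such as DKK1 bind LRP5 and LRP6, with Kremen proteins as partners.

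The members went in opposite directions. DKK1 was 9.88-fold higher and WNT5B 3.26-fold higher after bevacizumab, and DKK2 was 4.64-fold lower and DKK3 1.41-fold lower. FRZB, with a mean of 6.32 in controls, was under the detection floor used here on every bevacizumab array. For WNT5A a difference of 0.45 on the log2 scale did not pass the test; whether the Wnt5 ligands differed in response was not tested. SFRP1 and WIF1 were at the bottom of the scale in both groups. Values throughout are the authors' deposited GCRMA expression values on a log2 scale, where a difference of 1 is a factor of 2, and a value under 4 is treated here as too dim to order.

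Of the 8 genes, 6 had a brightest probe set with a mean of at least 4 over the 6 arrays and 2, SFRP1 and WIF1, did not. FRZB cleared that filter through its controls alone. Among the other 5, limma called 4 at an adjusted p under 0.05, 2 higher and 2 lower, and these 4 were also the genes whose groups did not overlap. Over all 10233 genes tested, 19.1% were called, 9.09% higher and 9.97% lower, and the groups did not overlap in 41%. The median log2 fold change was 0.45 for the 5 genes and -0.01 for all genes tested. The genes were chosen with earlier results of these data known, so nothing is read from these shares. Of the 23 probe sets, 12 were under 4 on all 6 arrays, and 10 varied by no more than 0.1 across the arrays.

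**Figure D1:**
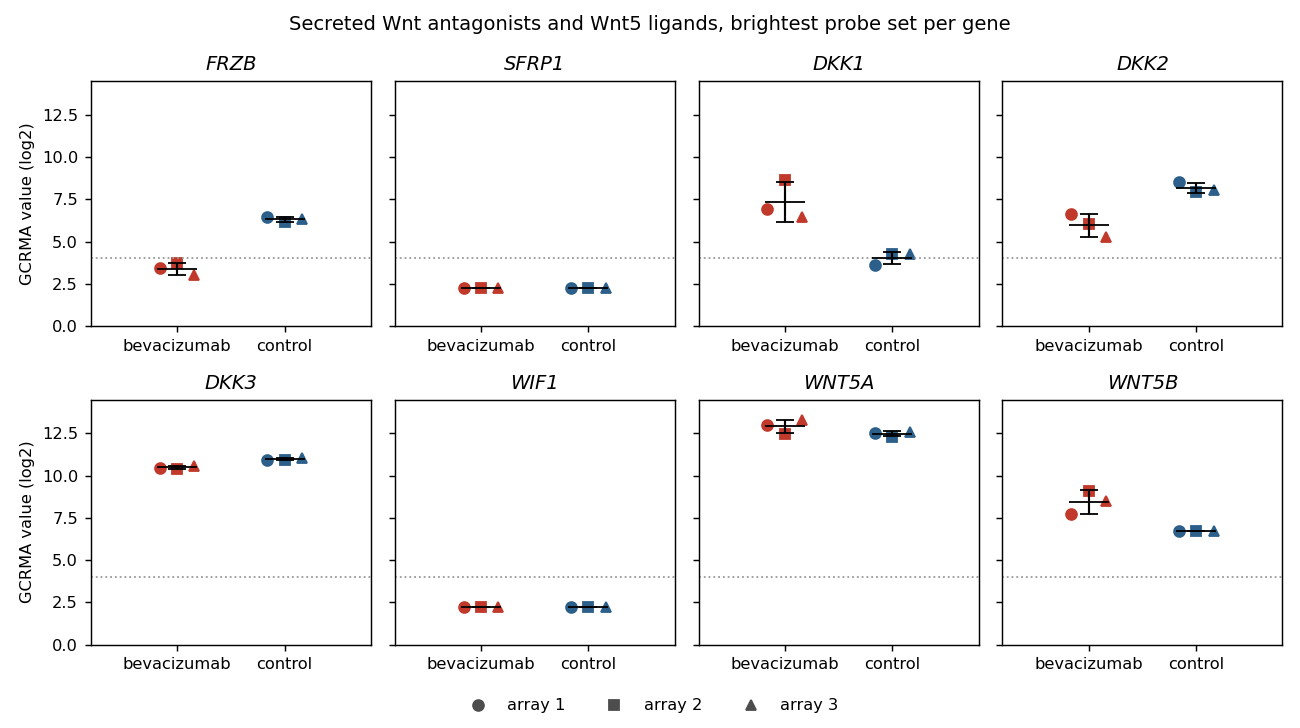
GCRMA value (log2) of the brightest probe set of each of the 8 genes on each array, with bevacizumab left of control. Symbols give array 1, 2 and 3 of each group, black bars the mean ± SD, and the dotted line the value of 4. FRZB and DKK2 sit lower and DKK1 and WNT5B higher on all 3 bevacizumab arrays, while SFRP1 and WIF1 lie near 2.24 throughout.

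FRZB encodes a secreted decoy that holds Wnt ligands through a domain like that of the Frizzled receptors. It was first known from developing cartilage. Its brightest probe set, 203697_at, read 3.46, 3.71 and 3.01 on bevacizumab arrays 1, 2 and 3, against 6.46, 6.17 and 6.34 on control arrays 1, 2 and 3. The groups were apart by more than 2 log2 units and the controls were close together. The means were 3.39 ± 0.36 in bevacizumab tumours and 6.32 ± 0.15 in controls (SD, n = 3 each), a difference of -2.93. Since all 3 bevacizumab values are under 4, the fall is at least 5.01-fold when the control mean is set against 4. The probe set 203698_s_at read 3.46, 3.34 and 3.38 on the bevacizumab arrays and 5.29, 5.26 and 4.66 on the controls, which is at least 2.10-fold lower. Both probe sets thus ran the same way. The remaining pair, 231273_x_at and 244419_at, stood at 2.23, the lowest value of the table, on every array and says nothing on the gene. The probes target human sequence, and any mouse RNA in the tumour was not measured apart. With the 3' to 5' difference of ACTB, a sign of RNA degradation, as a covariate, the FRZB difference was -3.10. This is a description only, since the fall chose the gene and the bevacizumab values are too dim to order.

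**Figure D2:**
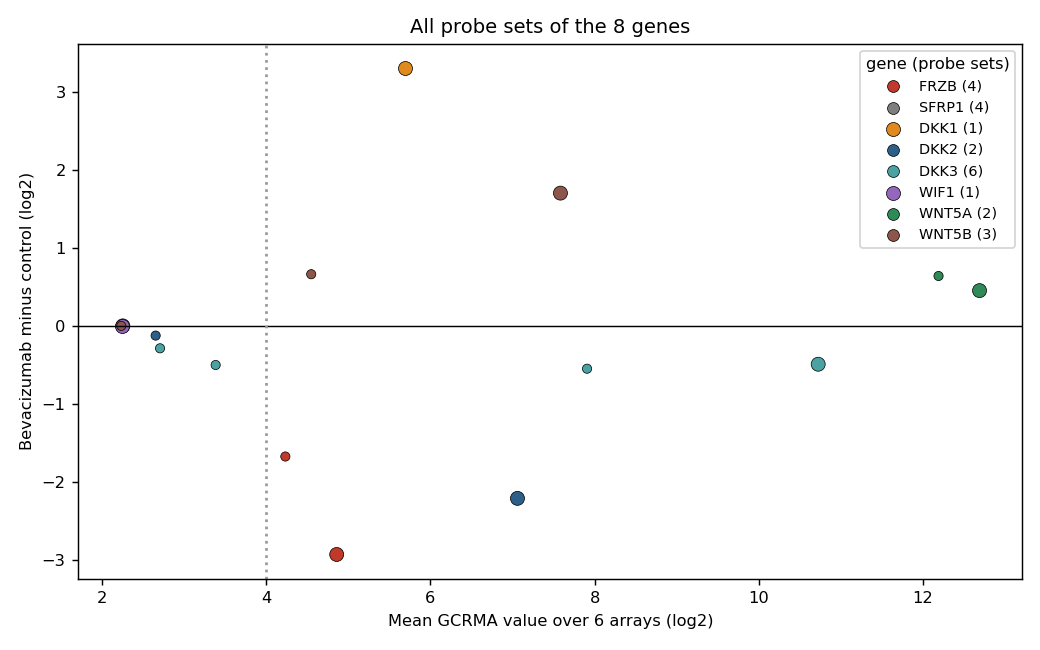
Difference between group means (bevacizumab minus control, log2) against the mean over 6 arrays (log2) for all 23 probe sets of the 8 genes; large points mark the probe set that stands for a gene, and the dotted line the value of 4. Every probe set with a mean over 4 runs the way of its gene's brightest one, and most dim ones lie at 0.

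The 5 genes whose profile lay nearest to FRZB were found by the root mean square difference between values over the 6 arrays, each gene centred on its own mean. They were RGS5, a pericyte gene that restrains G protein signalling, at 0.22 log2 units, GPM6B, a membrane glycoprotein gene, at 0.29, CLDN11, a tight junction gene, at 0.30, SLC40A1, which encodes the iron exporter ferroportin, at 0.30, and CCDC102B at 0.39. RGS5 read 6.96, 7.29 and 6.59 on the bevacizumab arrays, against 9.87, 10.03 and 9.48 on the controls. The bevacizumab values of RGS5 were all over 4. Its groups did not overlap, as was the case for 41% of all genes tested, and its choice by likeness to FRZB made that certain. FRZB itself was under 4 on all 3 bevacizumab arrays, as was SLC40A1, so each of these distances rests in part on values too dim to order, and likeness over 6 arrays in separate groups mostly reflects the size of the group difference.

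**Figure D3:**
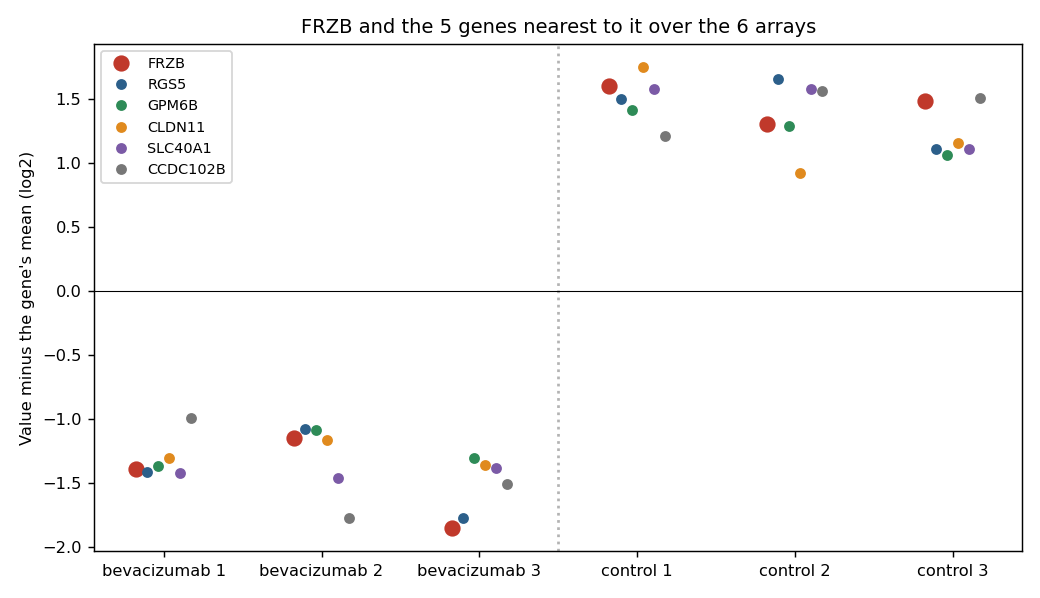
Value minus the gene's own mean over the 6 arrays (log2) for FRZB and the 5 genes nearest to it, with the bevacizumab arrays left of the controls. All 6 genes lie below 0 on each bevacizumab array and above 0 on each control, which follows from the choice by likeness to FRZB. RGS5 follows FRZB most closely, at 0.22 log2 units.

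Of 10 mural cell markers (pericytes and smooth muscle), all 10 were tested, 5 fell and 5 did not pass, where 9.97% of all genes were called lower. Nothing is read from this share, since the lists were written with earlier results of these data known. RGS5 is also the gene nearest to FRZB, which was chosen for its fall. RGS5 and ACTA2 had log2 fold changes of -2.85 and -1.79 (limma adjusted p = 0.0022 and 0.00407), and ACTA2 had -0.81 with the mean of its probe sets (adjusted p = 0.0377). KCNJ8, HEYL and ENPEP, with limma adjusted p = 0.00482, 0.0092 and 0.00207, were under 4 on all 3 bevacizumab arrays and passed the filter through the controls alone. Only a fall could therefore be called for them. With values under 4 set to 4, their log2 fold changes were -1.67, -1.97 and -3.30, which are lower bounds on the size of the fall. The 5 calls held whichever array was left out, that on HEYL was lost without the filter (adjusted p = 0.065), and with the ACTB covariate their adjusted p ran from 0.0547 to 0.106. The markers that did not pass were PDGFRB, a receptor of pericytes and fibroblasts (log2 fold change 0.30, adjusted p = 0.175), CSPG4 (0.16, adjusted p = 0.538), MCAM (0.42, adjusted p = 0.677), NOTCH3 (-0.51, adjusted p = 0.415) and ABCC9 (-0.76, adjusted p = 0.406). The log2 of the summed mural marker level ran from 11.82 to 12.06 in bevacizumab tumours and from 13.12 to 13.44 in controls, and the groups did not overlap. ACTA2 alone made up 48.2% to 59.5% of that sum in bevacizumab tumours and 68.4% to 79% in controls. Without ACTA2, a choice made after seeing the data, the sum ran from 10.56 to 11.09 in bevacizumab tumours and from 11.19 to 11.50 in controls, closer together but still apart. RGS5, named above as nearest to FRZB, was still in that sum, at 6.59 to 7.29 in bevacizumab tumours and 9.48 to 10.03 in controls. A sum without both genes was not taken, so the gap that remained cannot be read apart from RGS5. Of 7 cartilage and bone matrix markers, the other setting where FRZB is well known, 3 were tested and 2 fell. Over all genes tested 9.97% were called lower, and nothing is read from this share either. Those that fell were the matrix proteoglycan genes EPYC and OGN (limma adjusted p = 0.00127 and 0.00261). Both were under 4 on all 3 bevacizumab arrays and passed the filter through the controls alone, so only a fall could be called. With values under 4 set to 4 their log2 fold changes were -2.97 and -2.83, again lower bounds on size. OGN lost its call with the ACTB covariate (adjusted p = 0.0589). MATN3, also tested, ran the other way by 1.21 and did not pass (limma adjusted p = 0.242). The defining cartilage genes COL2A1, ACAN and COMP, and also CHAD, were under 4 on all arrays. The summed level of this list ran from 6.02 to 7.35 in bevacizumab tumours and from 7.94 to 8.53 in controls. The value of 7.35 was that of bevacizumab array 3, where MATN3 read 6.96. The fibroblast markers were all measured, and 1 of 8, COL3A1, fell by 0.84 (adjusted p = 0.0258). It passed in only 2 of the 6 fits on 5 arrays, those without bevacizumab array 1 or 2 (adjusted p up to 0.0914 over the 6), and not with the ACTB covariate (adjusted p = 0.222). The probes target human sequence and the tumours grew in mice. Whether values of mural, cartilage or fibroblast markers came from U87 cells or from mouse host cells was not measured, so they are not counts of such cells. In these bulk tumours fewer cells of a type and less RNA per cell cannot be told apart, and the part of mural cells in the FRZB values was not tested.

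**Figure D4:**
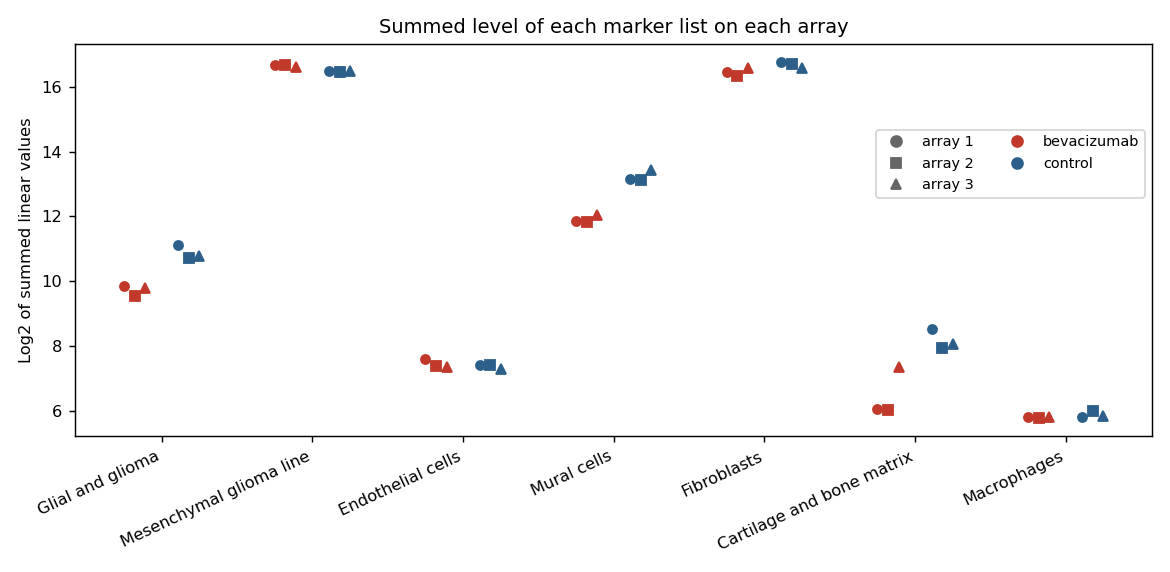
Log2 of the summed linear values of each marker list on each array, bevacizumab left of control, with symbols for array 1, 2 and 3. The mural list runs from 11.82 to 12.06 in bevacizumab tumours and from 13.12 to 13.44 in controls, while the endothelial and macrophage lists stay low in both.

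The check of the labelled tissue gave a mesenchymal picture. VIM, CD44, CHI3L1, FN1 and TNC, genes of mesenchymal glioma lines such as U87, were bright on all arrays, and CDKN2A and MTAP, deleted in U87, were under 4 on all arrays. CHI3L1 was higher by 1.60 after bevacizumab (limma adjusted p = 0.0174), but not past the threshold without bevacizumab array 2 or control array 1 or 2 (adjusted p = 0.055, 0.0706 and 0.071), nor with the ACTB covariate, where it was higher by 0.99 (adjusted p = 0.176). The glial markers GFAP, OLIG2 and S100B were under 4 on every array. SOX2 was too dim to test, with means of 3.89 in bevacizumab tumours and 3.08 in controls. Only bevacizumab array 1 was over 4 for it (4.30). NES, a marker of neural progenitors, fell by 1.18 (limma adjusted p = 0.00725), and by 0.66 with the mean of its probe sets (adjusted p = 0.0221). The call on NES did not hold with the ACTB covariate (adjusted p = 0.0962). Of 8 endothelial markers 6 were under 4 on all arrays, among them CDH5, VWF and KDR, and of 5 measured macrophage markers 4 were.

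Among the Dickkopf genes, DKK1 rose. DKK1, the classic inhibitor that takes LRP5 and LRP6 out of play and is itself a known target of beta-catenin signalling, read 6.94, 8.66 and 6.42 on the bevacizumab arrays, against 3.61, 4.25 and 4.25 on the controls. Every bevacizumab array was above every control, and bevacizumab array 2 stood above the other two. The means were 7.34 ± 1.17 in bevacizumab tumours and 4.04 ± 0.37 in controls (SD, n = 3 each). The log2 fold change was 3.31 (95% confidence interval 1.91 to 4.70, limma adjusted p = 0.0153). Of the controls 1 was under 4 and the others just over it, and with values under 4 set to 4 the log2 fold change was 3.18 and still passed. DKK1 has a single probe set, 204602_at, so no other probe set bears on it. The genes nearest to DKK1 over the 6 arrays were LINC01279 at 0.42 log2 units, EFEMP1 at 0.47, CLDN1 and TNFRSF1B at 0.52 and 0.53, and the complement gene C1R at 0.59.

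DKK2 moved the other way. Its product also binds LRP6, and it is known to inhibit or to activate Wnt signalling depending on the cell. The probe set 219908_at read 6.61, 6.01 and 5.24 on the bevacizumab arrays and 8.50, 7.95 and 8.06 on the controls. The groups did not overlap, and the bevacizumab arrays were spread more widely than the controls. The log2 fold change was -2.21 (95% confidence interval -3.07 to -1.35, limma adjusted p = 0.0123), or 4.64-fold lower. The other DKK2 probe set, 224199_at, lay between 2.32 and 2.73 on all arrays. Nearest to DKK2 were the scavenger receptor gene SCARA3 at 0.24 log2 units, ID1, an inhibitor of differentiation, at 0.26, CRISPLD2 at 0.29, the replication gene GINS4 at 0.32 and RTKN2 at 0.34.

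DKK3 is a divergent Dickkopf gene, whose product is not known as a strong LRP6 ligand and which is often silenced in tumours. Its brightest probe set, 214247_s_at, read 10.44, 10.41 and 10.59 on the bevacizumab arrays, against 10.92, 10.93 and 11.06 on the controls. The shift was small, but the arrays of each group lay within 0.2 of each other and the groups did not overlap. DKK3 fell by 0.49 (95% confidence interval -0.72 to -0.27, limma adjusted p = 0.0189). A further bright probe set, 202196_s_at, read 7.33, 7.72 and 7.85 on the bevacizumab arrays and 8.11, 8.29 and 8.16 on the controls, a difference of -0.55 (adjusted p over probe sets 0.0639). The 4 dimmer DKK3 probe sets had means under 4: 221127_s_at and 230508_at averaged -0.50 and -0.29 relative to control, and the other pair stood at the lowest value of the table. The genes nearest to DKK3 lay within 0.05 log2 units of it and included SNRPE, a spliceosome subunit gene, PSMG1, a proteasome assembly gene, and the mitochondrial ribosomal genes MRPS7 and MRPL39.

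SFRP1 and WIF1, antagonists that bind Wnt ligands directly and are often silenced in tumours, were at the bottom of the scale. The 4 SFRP1 probe sets lay between 2.23 and 2.29 on every array, and the WIF1 probe set 204712_at at 2.24 on every array. Nothing can be said of a change in either gene.

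WNT5B rose. It encodes a ligand closely related to that of WNT5A. The probe set 221029_s_at read 7.70, 9.11 and 8.50 on the bevacizumab arrays, against 6.73, 6.75 and 6.73 on the controls. All 3 bevacizumab arrays were above the controls, which were nearly identical, with the same deposited value on control arrays 1 and 3. The log2 fold change was 1.70 (95% confidence interval 0.89 to 2.52, limma adjusted p = 0.0218), or 3.26-fold higher. The dimmer WNT5B probe set 223537_s_at read 4.74, 4.74 and 5.15 on the bevacizumab arrays and 4.67, 4.22 and 3.76 on the controls, a difference of 0.66 (adjusted p over probe sets 0.132). It ran the same way without passing, and the third probe set, 230299_s_at, stood at the lowest value of the table. The genes nearest to WNT5B were the natriuretic peptide receptor gene NPR3 at 0.11 log2 units, SEZ6L2 at 0.11, HSPG2, which encodes the basement membrane proteoglycan perlecan, at 0.18, CCDC80 at 0.18 and PNRC1 at 0.19.

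WNT5A was bright on every array. The probe set 205990_s_at read 13.01, 12.48 and 13.26 on the bevacizumab arrays and 12.52, 12.30 and 12.58 on the controls. Bevacizumab array 2 fell within the range of the controls, so the groups overlapped. The log2 fold change of 0.45 had a 95% confidence interval of -0.06 to 0.96 and did not pass (limma adjusted p = 0.177). The probe set 213425_at read 12.55, 12.08 and 12.90 on the bevacizumab arrays, against 12.00, 11.69 and 11.93 on the controls, a difference of 0.64 with groups that did not overlap but an adjusted p over probe sets of 0.107. Without bevacizumab array 2 the WNT5A log2 fold change was 0.67 and passed (adjusted p = 0.0486). Nearest to WNT5A were the fatty acid activating enzyme gene ACSL4 at 0.09 log2 units, TTC32 at 0.09, the tryptophan dioxygenase gene TDO2 at 0.10, TTLL7 at 0.10 and BEGAIN at 0.11.

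The bevacizumab arrays did not rank the same way for all members. Array 2 was the highest of them for DKK1 and WNT5B but the lowest for WNT5A and DKK3, and array 3 was the lowest for DKK1 and DKK2 but the highest for WNT5A and DKK3. In the fit of 18475 probe sets, 15.4% were called, 7.43% higher and 7.96% lower, and the groups did not overlap in 39%. There 4 of the 8 tested probe sets of genes other than FRZB passed, and these were the brightest ones of DKK1, DKK2, DKK3 and WNT5B.

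The 4 calls changed with RNA quality as a covariate and with single arrays left out. The ACTB difference, 3' minus 5' control probe set on the log2 scale, stood at 1.81 ± 0.16 in bevacizumab tumours and 1.38 ± 0.26 in controls (SD, n = 3 each; exact permutation p = 0.2, smallest possible 0.1). With it as a covariate the log2 fold changes were 2.56 for DKK1, -2.47 for DKK2, -0.52 for DKK3 and 1.88 for WNT5B, and none of the 4 passed (limma adjusted p = 0.165, 0.096, 0.13 and 0.133). When arrays were left out in turn, DKK1 was no longer called after removal of any control, DKK2 without control array 1 or 2, DKK3 without any 1 of the controls or bevacizumab array 2, and WNT5B without any 1 of the controls or bevacizumab array 3, with the adjusted p never above 0.0792. All 4 kept their direction in these fits.

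Promoter windows were at hand in RefSeq (GRCh38.p14) for 5 of the 8 genes, in 7 windows. The 250 bases before the annotated start are printed for DKK1, which rose, for FRZB, the gene with the fall, and for the WNT5A start whose window held a hypoxia motif; all read 5' to 3' on the gene's strand, with motif matches in capitals.

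DKK1 (chr10:52314031-52314280, plus strand): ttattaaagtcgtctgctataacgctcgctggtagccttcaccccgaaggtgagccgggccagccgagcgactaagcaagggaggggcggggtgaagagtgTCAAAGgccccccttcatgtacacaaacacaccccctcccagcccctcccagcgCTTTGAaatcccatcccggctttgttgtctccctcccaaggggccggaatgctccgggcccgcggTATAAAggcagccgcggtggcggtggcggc

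FRZB (chr2:182866638-182866887, minus strand): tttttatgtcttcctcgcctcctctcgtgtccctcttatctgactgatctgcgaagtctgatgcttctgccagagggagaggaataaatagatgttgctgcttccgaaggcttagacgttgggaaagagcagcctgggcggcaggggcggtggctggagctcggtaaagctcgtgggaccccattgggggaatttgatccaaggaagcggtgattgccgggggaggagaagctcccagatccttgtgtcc

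WNT5A (chr3:55487307-55487556, minus strand): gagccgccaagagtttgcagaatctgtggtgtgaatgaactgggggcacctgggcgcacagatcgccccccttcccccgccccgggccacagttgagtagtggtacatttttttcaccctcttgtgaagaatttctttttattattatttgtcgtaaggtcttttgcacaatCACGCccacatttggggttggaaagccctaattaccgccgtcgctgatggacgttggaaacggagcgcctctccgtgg

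The motifs searched on both strands were the hypoxia response element core (ACGTG or GCGTG), the TCF/LEF core CTTTGA through which beta-catenin acts, and the TATA box TATAAA; no matches overlapped. The DKK1 window held CTTTGA in both orientations, 149 to 144 and 95 to 90 bases before the start, and a TATA box 30 to 25 bases before it. Of all 35116 promoter windows of that length, 11.2% held CTTTGA, 0.977% held it at least 2 times, and 10.7% held TATAAA. The WNT5A window held GCGTG on the opposite strand, 78 to 74 bases before the start, whereas the second WNT5A window held no match. A hypoxia core in either form stood in 43.2% of all windows. The FRZB and WIF1 windows held none of these motifs, and of the 2 WNT5B windows 1 held TATAAA on the opposite strand. A match is a description of letters and not of binding.

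The rest of the pathway was read through 8 lists with 109 genes, of which 104 had a probe set and 57 were bright enough to test. Of these, 5 rose and 2 fell (limma adjusted p under 0.05), 50 did not pass, and the median log2 fold change was 0.05. The 7 called of these 57 compare with 19.1% of all genes tested, 9.09% higher and 9.97% lower. The genes that rose were RSPO3, KREMEN1, FZD7, FZD1 and FZD6. Those that fell were WLS and TLE1.

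**Figure D5:**
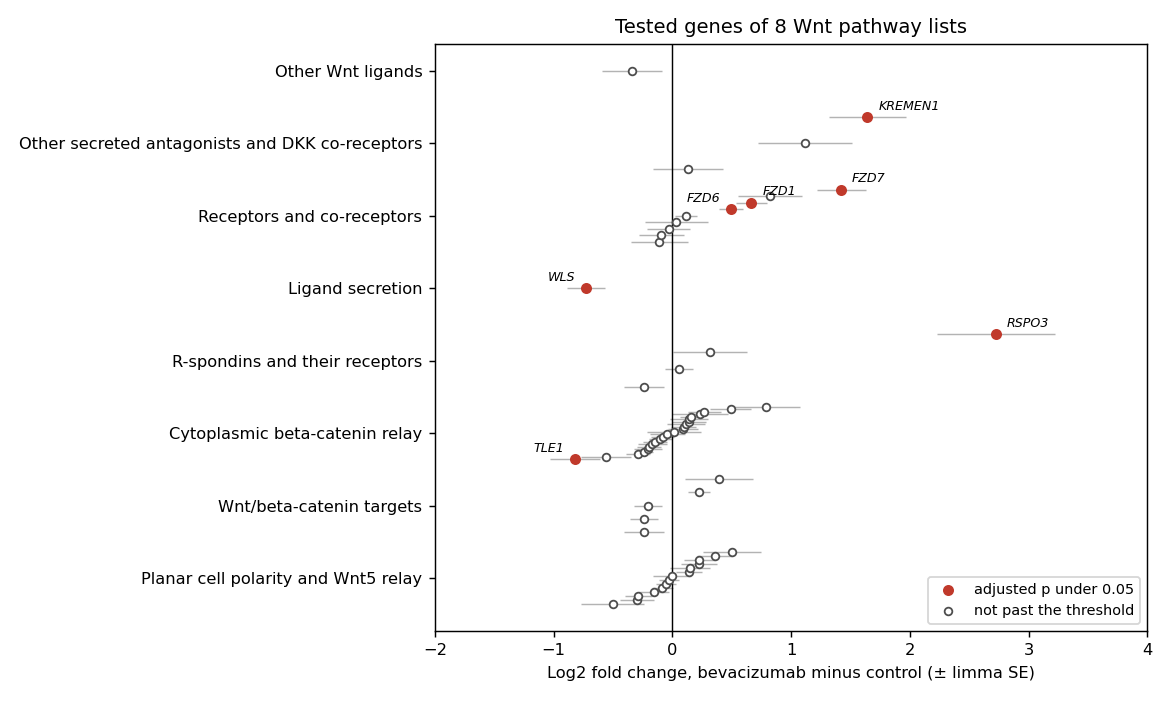
Log2 fold change (bevacizumab minus control, ± limma SE) of each tested gene of the 8 Wnt pathway lists; filled points passed an adjusted p of 0.05. RSPO3 at 2.72, KREMEN1 at 1.64 and FZD7 at 1.42 stand to the right, WLS at -0.73 and TLE1 at -0.82 to the left, and no target gene of beta-catenin is filled.

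RSPO3, a secreted R-spondin that strengthens Wnt signals by sparing Frizzled receptors from degradation, read 6.96, 7.63 and 8.17 on the bevacizumab arrays, against 3.86, 5.38 and 5.35 on the controls. The groups did not overlap, and the log2 fold change was 2.72 (SE 0.50, limma adjusted p = 0.0178). Its receptors LGR4 and LGR6 (0.32 and 0.05, adjusted p = 0.499 and 0.774) and the Frizzled-degrading ligase gene ZNRF3 (-0.24, adjusted p = 0.352) did not pass, and LGR5, RNF43 and the other R-spondin genes were under 4 throughout.

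Among co-receptors of the Dickkopf proteins, KREMEN1 read 5.00, 5.54 and 6.34 on the bevacizumab arrays and 3.89, 4.03 and 4.03 on the controls. It rose by 1.64 (SE 0.32, limma adjusted p = 0.0216), with controls at the detection floor, on the only 1 of its 5 probe sets bright enough to test. The control mean of KREMEN1 was 3.98, under the filter, so only a rise could be called. Without the filter its limma adjusted p was 0.118. KREMEN1 and DKK1 were thus both called higher, as were 9.09% of all genes tested, but their bevacizumab arrays ranked differently. Array 3 was the highest of them for KREMEN1 and the lowest for DKK1. LRP6, the receptor that DKK1 binds, had a log2 fold change of -0.11 (SE 0.24, adjusted p = 0.768), and LRP5 was under 4 on all arrays. Of the other secreted antagonists, SFRP2 and IGFBP4 were tested and did not pass (0.13 and 1.12, adjusted p = 0.78 and 0.101), and SFRP4 had a single array over 4, bevacizumab array 3 at 4.59. SFRP5, DKK4, SOST and SOSTDC1 were at the lowest value of the table.

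Of 9 tested receptors 3 rose and none fell, where 9.09% of all genes tested were called higher and 9.97% lower. The list was written with earlier results of these data known, so nothing is read from this share. FZD7, a Frizzled receptor, read 7.57, 8.01 and 7.97 on the bevacizumab arrays, against 6.60, 6.64 and 6.04 on the controls, which is 1.42 higher on the log2 scale (SE 0.21, limma adjusted p = 0.00937). FZD1 and FZD6 rose by 0.67 and 0.50 (adjusted p = 0.02 and 0.024), FZD1 on 3 of 3 probe sets. FZD7 was the only 1 of the 7 called pathway genes to pass whichever array was removed. RSPO3 did not pass without bevacizumab array 2 or control array 2, FZD1 without any control, FZD6 without bevacizumab array 2 or control array 1 or 2, and KREMEN1 without bevacizumab array 2 or any control. With the ACTB covariate none of the 7 passed with limma. The Wnt5 receptors ROR1 and RYK had log2 fold changes of 0.03 and 0.11 (adjusted p = 0.945 and 0.402), and ROR2 was at the lowest value of the table.

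WLS, which carries Wnt proteins to the cell surface for secretion, read 12.09, 11.82 and 11.60 on the bevacizumab arrays and 12.52, 12.40 and 12.77 on the controls. It fell by 0.73 (SE 0.16, limma adjusted p = 0.0297), with lower means on 3 of 3 probe sets, and passed in only 1 of the 6 fits on 5 arrays, that without bevacizumab array 1. Of 17 other Wnt ligand genes 15 had a probe set, and only WNT7B was bright enough to test (-0.34, adjusted p = 0.374). WNT10A, named after its values were seen, just missed the filter, with 3.90, 5.09 and 4.76 on the bevacizumab arrays and 3.53, 3.51 and 2.97 on the controls.

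Of 22 tested genes of the beta-catenin relay, TLE1, a co-repressor that binds TCF/LEF factors, fell by 0.82 (SE 0.21, limma adjusted p = 0.0432), and passed in 1 of the 6 fits on 5 arrays, that without bevacizumab array 3; none rose. With the mean of its probe sets the TLE1 log2 fold change was -0.29 and did not pass (adjusted p = 0.0878). Beta-catenin itself (CTNNB1) had a log2 fold change of -0.24 (adjusted p = 0.0782). No gene of the 5 tested beta-catenin targets passed with limma, and none had an unadjusted p under 0.05. Those with the smallest p were MYC at 0.23 and CCND1, the cyclin D1 gene, at -0.24 (adjusted p = 0.141 and 0.203). AXIN2, a feedback inhibitor and the usual readout of beta-catenin activity, had values of 5.36, 6.09 and 6.39 on the bevacizumab arrays and 5.74, 5.22 and 5.69 on the controls, with overlapping groups (adjusted p = 0.366). Of 14 tested genes of planar cell polarity and the Wnt5 relay none passed with limma, and 1, VANGL1, had an unadjusted p under 0.05. VANGL1 and DAAM1, which act in cell polarity, had log2 fold changes of -0.29 and 0.36 (adjusted p = 0.139 and 0.14).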

How the data were processed

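RNA of the xenografts was measured on 6 one-colour human expression arrays. The authors deposited log2 values; GCRMA and GCOS (1.1.1.052) are the tools in the submitters' processing notes. The log2 scale was inferred from the values, which end at 15.99. On each array 33.3% to 34.3% of probe sets held the lowest value. The number of arrays limits the precision, and no batch is named in the labels.

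Of 54675 probe sets, 41097 carry 1 gene symbol, updated by gene identifier for 41043. The brightest stood for each of 19775 genes. Genes with a mean of at least 4 were tested with limma 3.58.1 in R 4.3.3 (lmFit, eBayes, no covariate, Benjamini-Hochberg over all genes tested), and probe sets likewise. The procedure was checked on simulated data. A fold against a group wholly under 4 was computed against 4 and is a lower bound; differences on the deposited scale are also given for FRZB.

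Named are all 8 members, the 5 genes nearest to each tested one, and from each pathway list the called genes (at most 6) or, with none called, the 2 with the smallest p; others complete a list. Members and lists were chosen with earlier results of these data known. Alternatives covered the filter, the floor, probe set averaging, normalization, the variance model, RNA quality, the replicate block and leaving out each array.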

Additional observations from a re-analysis of the deposited data

How the results depend on the processing

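With quantile normalization, median centring, a variance trend with robust fitting, values under 4 set to 4, or the mean of all probe sets of a gene, the calls on DKK1, DKK2, DKK3 and WNT5B and the lack of one on WNT5A were the same. The mean of all probe sets, dim ones included, gave smaller log2 fold changes of -1.17 for DKK2, -0.31 for DKK3 and 0.79 for WNT5B (adjusted p = 0.0113, 0.0475 and 0.0187). A filter at 6 left DKK1 untested and did not change the others. No member turned its direction in any alternative. With values under 4 set to 4 the FRZB difference was -2.32, and leaving out an array gave -3.09 to -2.74. FRZB was chosen for its fall on these same arrays, so these values are a description and no check of the fall. Without the filter, 19775 genes entered the adjustment, 598 genes and 624 probe sets passed, and DKK1 (3.31, adjusted p = 0.0977), DKK2 (-2.21, 0.0804) and WNT5B (1.70, 0.119) lost their calls. With the ACTB covariate 24 genes and 21 probe sets passed, and log2 fold changes were 2.56 (DKK1), -2.47 (DKK2), -0.52 (DKK3) and 1.88 (WNT5B), none past the threshold; the cause was not tested. The replicate numbers were not taken to pair the arrays in the main fit. Deviations from the group means correlated at -0.05 to -0.01 for same-numbered arrays and at -0.21 to 0.23 for the others. Deviations from a mean of 3 arrays are tied to each other, so these values cannot settle whether arrays were paired. With the replicate block 904 genes and 1041 probe sets passed, and DKK3 (-0.49, adjusted p = 0.0593) lost its call, as did FZD1, FZD6, WLS, TLE1 and CHI3L1. Leaving out an array gave 558 to 2074 genes, 556 to 2783 probe sets, and log2 fold changes of 2.64 to 3.76 for DKK1, -2.54 to -1.86 for DKK2, -0.55 to -0.45 for DKK3, 0.28 to 0.67 for WNT5A and 1.37 to 2.07 for WNT5B. Pathway genes higher by limma numbered 0 without the filter (7 at an unadjusted p under 0.05), 0 with the ACTB covariate (10 unadjusted), 3 with the replicate block and 1 to 7 without an array. Those lower numbered 1, 0 (4 unadjusted), 0 (4 unadjusted) and 0 to 2 in the same settings, with 0 when any 1 of the controls was left out (3, 3 and 4 unadjusted). The ACTB difference was 0.31 to 0.57 without an array.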
